A study of Mus musculus with 8 samples.

Results

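The 9 genes described here encode the 3 chains of the interleukin-2 (IL-2) receptor (Il2ra, Il2rb and Il2rg), the transcription factors STAT5A and STAT5B (Stat5a and Stat5b), and 4 products that STAT5 is known to induce (Cish, Socs1, Socs2 and Pim1). They were chosen by name, as every non-control probe whose gene name is one of the 9. This gave 16 probes among 56587 usable probes, which had 36997 gene names after updating through RefSeq. Of these 16, 14 were bright enough to be tested, and each of the 9 genes kept at least 1 probe. The RNA came from CD4+ T cells of C57BL/6 mice, isolated 4 days after immunisation and hybridised to 8 one-colour arrays, 2 in each of 4 groups. These were tumour-bearing mice given anti-IL-6R, an antibody to the receptor of IL-6 (replicates 7 and 8), tumour-bearing mice given control antibody (replicates 3 and 4), tumour-free mice given anti-IL-6R (replicates 5 and 6) and tumour-free mice given control antibody (replicates 1 and 2). Tumour-bearing mice carried MCA205, a fibrosarcoma line, engineered to express ovalbumin. All 4 groups, the tumour-free ones included, had been injected with ovalbumin-specific CD4+ T cells from T cell receptor transgenic mice and with dendritic cells carrying ovalbumin peptide. Neither the share of transferred cells among the isolates, nor their purity, nor the number of mice behind a sample is stated in the labels. The series asks how IL-6 restrains Th1 responses in mice with tumours, and its stated comparisons are tumour-bearing against tumour-free mice and anti-IL-6R against control antibody in tumour-bearing mice.

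The IL-2 receptor alpha chain (CD25, Il2ra) raises the affinity of the receptor for IL-2, while the beta chain (CD122, Il2rb) and the common gamma chain (CD132, Il2rg) carry the signal. The beta chain is shared with the IL-15 receptor, and the gamma chain with the receptors for IL-4, IL-7, IL-9, IL-15 and IL-21. The kinases JAK1 and JAK3, bound to these chains, phosphorylate STAT5, which then pairs, enters the nucleus and binds DNA. Its targets include inhibitors that feed back on cytokine receptors (Cish, Socs1 and Socs2), the kinase gene Pim1 and Il2ra itself. In CD4+ T cells IL-2 and STAT5 are known to support regulatory T cells and to oppose the follicular helper programme. Transcripts were measured here, and STAT5 phosphorylation was not.

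Cish was the gene of this group whose change between tumour-bearing and tumour-free mice held under every setting tried, so the stretch around its RefSeq transcript start is shown. It is chr9:107296559-107296678 on the plus strand of build GRCm38.p6 (RefSeq), from 100 bases before to 20 bases after the start. Capitals mark each match to TTCNNNGAA, the known core of STAT binding sites, a motif that reads the same on both strands.

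Cish start region: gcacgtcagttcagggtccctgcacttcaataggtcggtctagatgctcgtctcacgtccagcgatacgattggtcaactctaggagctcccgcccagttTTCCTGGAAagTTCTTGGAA

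The stretch holds 2 matches, and the first begins at base 1 of the transcript. RefSeq windows of 300 bases (250 before to 50 after a start) were at hand for 7 of the 9 genes, 10 windows in all, and the Cish window was the 1 that held a match. Over all 32851 windows, 8.3% held at least 1 match and 0.457% at least 2. Matches spaced as in Cish, with 2 bases between them, were found in 1 window, that of Cish itself, a share of 0.00304%. The spacing was taken from the Cish sequence, so this share is no independent test of it. A match describes these letters, and no binding was measured.

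Each probe is a 60-base oligonucleotide, and its level is given as log2 of the background-subtracted signal minus the 75th percentile of its array. A level of 0 is therefore as bright as that percentile, and 1 unit is a doubling of signal. Positions of probes are those in the scanner files, build mm9. Cish was read by 1 probe (chr9:107204196-107204255), Il2rg by 1 (chrX:98459802-98459860), Socs1 by 1 (chr16:10783951-10784010) and Pim1 by 1 (chr17:29632331-29632390). Il2rb had 2 probes (chr15:78309771-78309830 and chr15:78311109-78311168), Il2ra had 2 (chr2:11614744-11614803 and chr2:11570205-11570264), and Stat5b had 2 (chr11:100642045-100642104 and chr11:100682720-100682779). In each of these last pairs, for Il2ra and Stat5b, the second probe was designed on a cDNA clone and not on the RefSeq transcript. A gene with several tested probes is represented by the one with the highest mean over the 8 arrays, which is the first named in each pair. The 2 probes shown next lie in coding sequence and matter for the results below. The Socs2 probe (chr10:94875468-94875527, minus strand) is the second to read the rise of that gene, beside the one that represents it (chr10:94875066-94875125). The Stat5a probe (chr11:100745240-100745299, plus strand) represents its gene, and 1 array stands apart on it.

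Socs2 probe A_55_P1992838: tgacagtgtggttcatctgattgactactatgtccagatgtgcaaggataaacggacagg
Stat5a probe A_66_P115018: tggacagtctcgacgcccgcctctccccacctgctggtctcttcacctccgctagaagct

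The arrays were alike in brightness. Their 75th percentile of signal lay between 500.3 and 526.6, 53.1% to 59.8% of probes were well above background, and no spot was saturated. The T cell genes Cd3d, Cd3e, Cd3g, Cd4, Cd5, Cd28, Lck and Cd2 were well above background on all 8 arrays, with Cd4 at levels of 5.15 to 5.65. Cd8b1, the beta chain of the CD8 co-receptor of killer T cells, was also above background on all 8, at 2.39 to 2.97. The alpha chain gene Cd8a was above background on all 8 too, at lower levels of -2.55 to -1.05. All arrays shared 1 slide and 1 scan. Control antibody arrays filled one slide column and anti-IL-6R arrays the other, with host following the rows, so slide position and group cannot be told apart. The labels speak of 2 independent experiments per condition without saying which arrays belong together, so p-values reflect only the scatter among these arrays, which may in part be technical. In such bulk RNA, fewer cells of a type and less RNA per cell cannot be told apart.

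**Figure D1:**
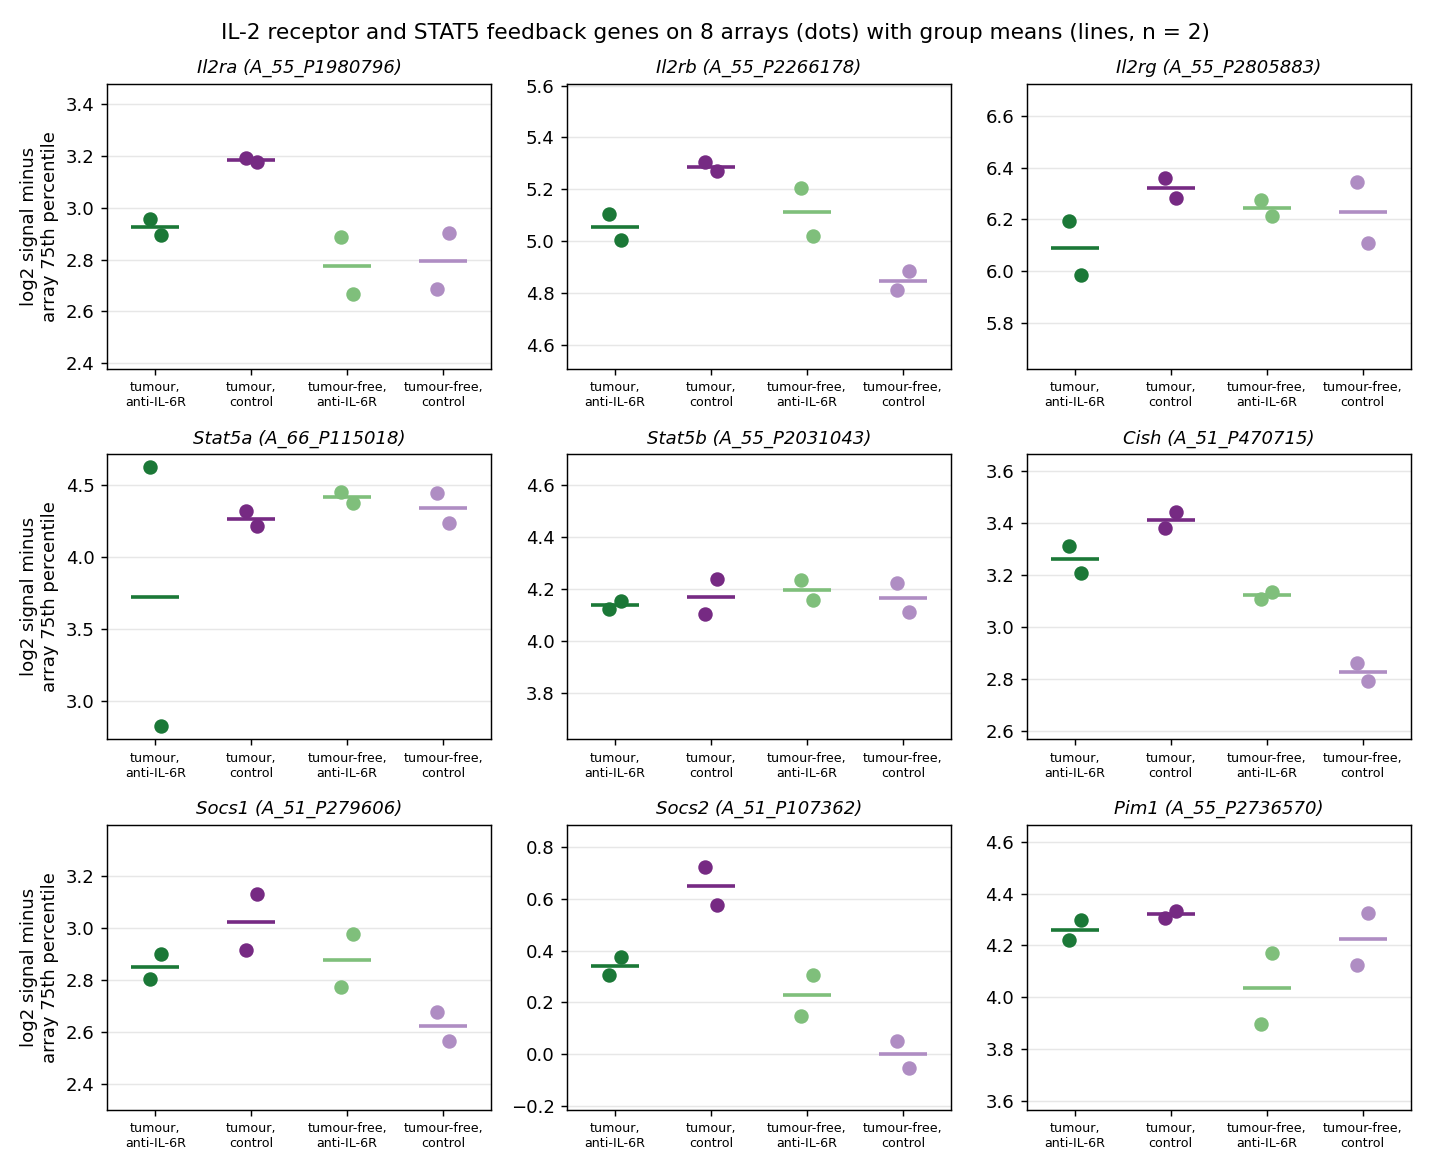
Level of the representing probe of each of the 9 genes on the 8 arrays (dots) with the mean of each group (lines, n = 2), as log2 signal minus the array's 75th percentile; each panel has its own vertical axis and axes do not start at 0. Cish lies between 3.38 and 3.44 in tumour-bearing mice with control antibody and between 2.79 and 2.86 in tumour-free mice with control antibody, and 1 Stat5a array of tumour-bearing mice with anti-IL-6R stands at 2.83.

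Under control antibody, tumour-bearing mice had more Cish, Socs2 and Il2rb transcript than tumour-free mice. These are 2 of the feedback inhibitors and the signalling chain shared by the IL-2 and IL-15 receptors. At an adjusted p under 0.05, 5 of the 14 tested probes were higher and 1 was lower, from 4 of the 9 genes. Over all 32039 tested probes 3.36% were higher and 1.89% lower, 5.25% in either direction. At an unadjusted p under 0.05 stood 10 of the 14 probes, against 7615 of all 32039. The arrays of tumour-bearing mice lay wholly above those of tumour-free mice for 8 of the 14 probes and wholly below for 2, where 27.8% and 24.7% of all probes did so. Among the 9 representing probes, 8 differences were above 0 (median 0.39), and so were those of 54.9% of all 21519 genes (median 0.03).

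Cish, which encodes an inhibitor that docks on activated cytokine receptors, had levels of 3.38 and 3.44 in tumour-bearing mice with control antibody, against 2.79 and 2.86 in tumour-free mice with control antibody. Its levels under anti-IL-6R were 3.31 and 3.21 in tumour-bearing mice and 3.11 and 3.14 in tumour-free mice. The 4 groups did not overlap at any step, and the tumour-bearing groups were the upper pair. Under control antibody the rise was 0.59 ± 0.07 (SE, n = 2 per group, adjusted p = 0.0059), or 1.50-fold. It kept its call under all 18 alternatives, with adjusted p between 0.0039 and 0.039.

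Socs2, which encodes another feedback inhibitor, known in mice for restraining growth hormone signalling, had levels of 0.72 and 0.57 in tumour-bearing mice with control antibody, against 0.05 and -0.05 in tumour-free mice with control antibody. With anti-IL-6R it stood at 0.31 and 0.38 in tumour-bearing and at 0.15 and 0.31 in tumour-free mice. The order of the groups was that seen for Cish, with no overlap, though the 2 anti-IL-6R groups met at 0.31. The rise was 0.65 ± 0.10 (adjusted p = 0.013), or 1.57-fold. The coding probe printed above gave -0.71 and -0.68 in tumour-bearing mice with control antibody, against -1.32 and -1.43 in tumour-free mice with control antibody. Both probes of the gene therefore ranked these 2 groups alike, and the coding probe rose by 0.68 ± 0.13 (adjusted p = 0.025). Without replicate 2 or 3 the first probe missed the threshold (adjusted p as high as 0.084). The coding probe missed it without 2, 3 or 4 (as high as 0.14) and with no filter on dim probes. The 2 other Socs2 probes were too dim to be tested, and the 4 together span 27522 bases. One of the 2 was well above background on 0 arrays and the other on 3, and their levels lay between -6.39 and -3.19.

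Il2rb had levels of 5.30 and 5.27 on its representing probe in tumour-bearing mice with control antibody, against 4.81 and 4.88 in tumour-free mice with control antibody. On its other probe they were 4.34 and 4.27, against 3.76 and 3.82. On both probes tumour-bearing mice with control antibody were the highest group and tumour-free mice with control antibody the lowest, with the anti-IL-6R groups between them. The rise was 0.44 ± 0.08 (adjusted p = 0.025) on the representing probe and 0.51 ± 0.07 (adjusted p = 0.0088) on the other. The representing probe missed the threshold without replicate 1, 2, 3 or 4 (adjusted p as high as 0.12), with no filter and with no trend in the variance. The other missed it without replicate 3 (adjusted p = 0.053).

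The other receptor chains did not pass the test. Il2ra stood at 3.19 and 3.18 in tumour-bearing mice with control antibody, against 2.69 and 2.90 in tumour-free mice with control antibody, a difference of 0.39 ± 0.10 (adjusted p = 0.065, 95% interval 0.16 to 0.62). The arrays did not overlap between these groups. Il2rg stood at 6.36 and 6.28, against 6.35 and 6.11, a difference of 0.09 ± 0.10 (adjusted p = 0.64, 95% interval -0.14 to 0.32). For this chain the groups overlapped.

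Socs1, which encodes an inhibitor of JAK kinases, stood at 2.92 and 3.13 in tumour-bearing mice with control antibody, against 2.68 and 2.57 in tumour-free mice with control antibody. The groups did not overlap, and the difference of 0.40 ± 0.10 missed the threshold (adjusted p = 0.065, 95% interval 0.16 to 0.64). Pim1, which encodes a kinase that promotes survival and growth, had levels of 4.30 and 4.33, against 4.12 and 4.33. Its groups overlapped, with a difference of 0.09 ± 0.11 (adjusted p = 0.65, 95% interval -0.15 to 0.34).

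No probe of the STAT5 genes rose past the threshold. On its representing probe Stat5b had levels of 4.10 and 4.24 in tumour-bearing mice with control antibody, against 4.22 and 4.11 in tumour-free mice with control antibody. The difference was 0.00 ± 0.08 (adjusted p = 0.98, 95% interval -0.17 to 0.18). Its clone probe, which with the first spans 40734 bases of the locus, stood at -1.89 and -1.84, against -1.36 and -0.98. That probe fell by 0.70 ± 0.16 (adjusted p = 0.049), opposite to the 5 probes that rose. It did not pass without replicate 2, 3, 4, 7 or 8, nor under 6 of the other settings (adjusted p as high as 0.24). Stat5a stood at 4.32 and 4.21 on its representing probe, against 4.44 and 4.24, a difference of -0.07 ± 0.45 (adjusted p = 0.95). On its other probe (chr11:100746373-100746432) it stood at 2.76 and 2.86, against 2.71 and 2.52, with no overlap. This difference was 0.20 ± 0.08 (adjusted p = 0.21, 95% interval 0.0018 to 0.39).

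**Figure D2:**
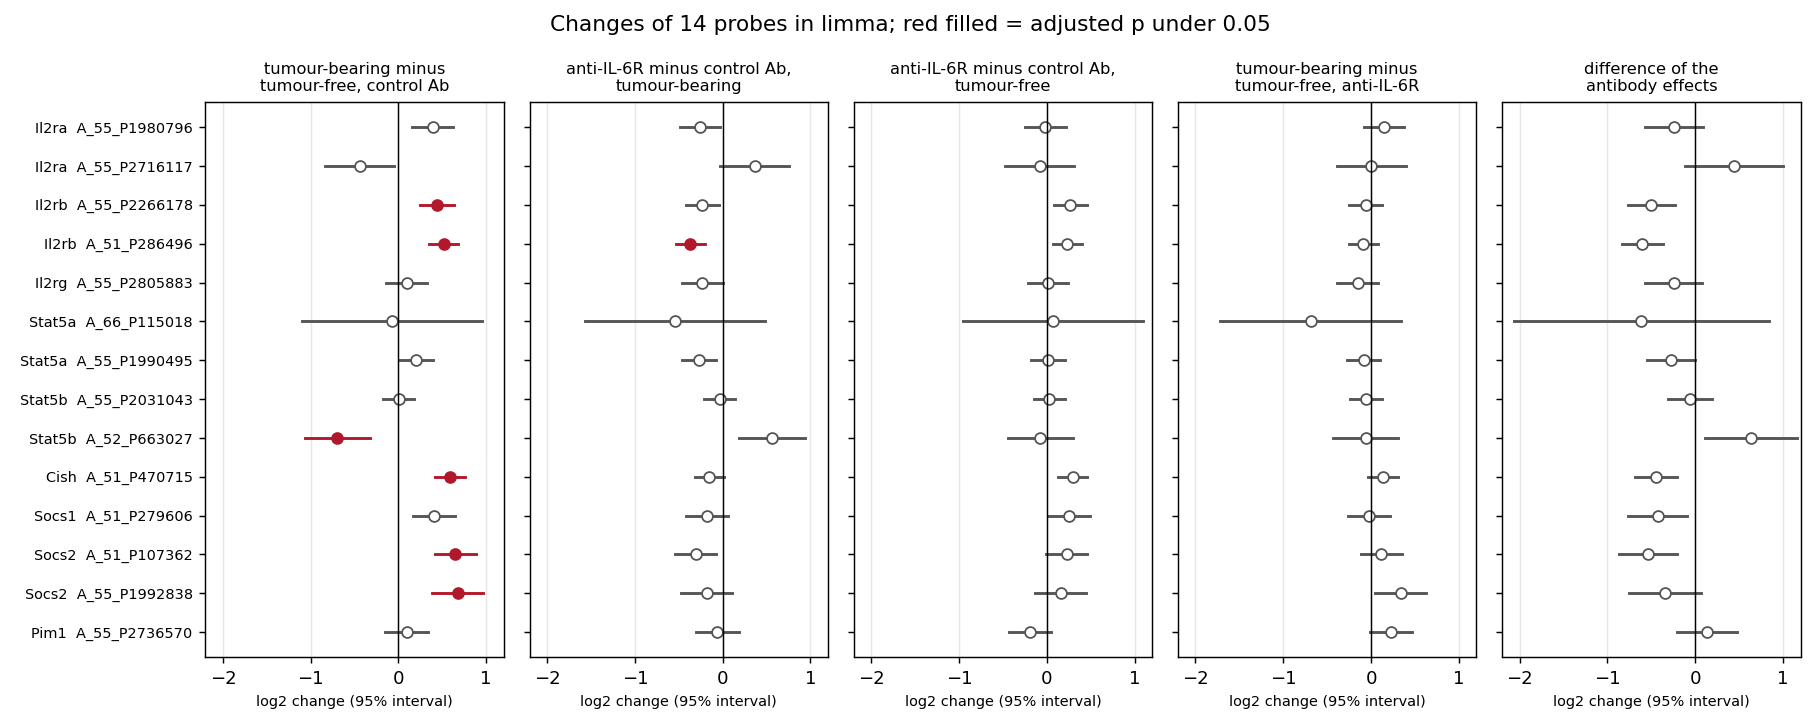
Change of the 14 tested probes in each of the 5 comparisons, as log2 change with its 95% interval (limma); red filled points passed an adjusted p of 0.05. In the comparison of tumour-bearing with tumour-free mice under control antibody 5 probes lie above 0 and 1 below it past the threshold, 1 probe lies below 0 past it for the antibody in tumour-bearing mice, and none passes in the other 3 comparisons.

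In tumour-bearing mice, anti-IL-6R went with less Il2rb transcript on 1 of its 2 probes, and no other member passed. That is 0 of 14 probes higher and 1 lower, where over all tested probes 1.51% were higher and 2.76% lower, 4.27% in either direction. At an unadjusted p under 0.05 stood 6 of the 14 probes, against 8651 of all 32039. All 9 representing probes lay below 0 (median -0.23), while 42.2% of all genes lay above 0 (median -0.05). The arrays given anti-IL-6R lay wholly below those given control antibody for 10 of the 14 probes and wholly above for 1, against 34.1% and 25.7% of all probes. This comparison uses the same 2 control antibody arrays of tumour-bearing mice as the one above.

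The Il2rb probe at chr15:78311109-78311168 had levels of 3.97 and 3.90 with anti-IL-6R, against 4.34 and 4.27 with control antibody. It fell by 0.37 ± 0.07 (adjusted p = 0.038), a level 1.29-fold lower. The representing probe of the gene stood at 5.10 and 5.00, against 5.30 and 5.27, a difference of -0.23 ± 0.08 (adjusted p = 0.12). The groups did not overlap on either probe. The first did not pass without replicate 3, 4, 7 or 8 (adjusted p as high as 0.22), under quantile normalization, with no filter, with no trend in the variance and in a fit of these 2 groups alone.

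None of the feedback genes passed in this comparison. Socs2 had levels of 0.31 and 0.38 with anti-IL-6R, against 0.72 and 0.57 with control antibody, a difference of -0.31 ± 0.10 (adjusted p = 0.10). Il2ra had 2.95 and 2.89, against 3.19 and 3.18 (-0.26 ± 0.10, adjusted p = 0.15), and Il2rg 6.20 and 5.99, against 6.36 and 6.28 (-0.23 ± 0.10, adjusted p = 0.19). For each of these 3 genes, and for Cish, Socs1 and Pim1, the arrays given anti-IL-6R lay below those given control antibody. Cish, with 3.31 and 3.21 against 3.38 and 3.44, differed by -0.15 ± 0.07 (adjusted p = 0.22, 95% interval -0.32 to 0.02), and Socs1 by -0.17 ± 0.10 (adjusted p = 0.32). Pim1 differed by -0.06 ± 0.11 (adjusted p = 0.76), with 4.22 and 4.30 against 4.30 and 4.33. Stat5b differed by -0.03 ± 0.08 on its representing probe (adjusted p = 0.83, 95% interval -0.21 to 0.15).

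The Stat5a probe printed above had levels of 4.62 and 2.83 with anti-IL-6R in tumour-bearing mice, and between 4.21 and 4.45 on the other 6 arrays. Replicate 8 alone was low, and the other Stat5a probe gave 2.55 and 2.53 in that group. Its change of -0.54 ± 0.45 (adjusted p = 0.48) became -1.44 without replicate 7 (adjusted p = 0.017) and 0.36 without replicate 8. The other Stat5a probe changed by -0.27 ± 0.08 (adjusted p = 0.091).

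In tumour-free mice anti-IL-6R called 0 of the 14 probes, where 0.025% of all tested probes were higher and 0.00624% lower, 0.0312% in either direction. Unadjusted p-values under 0.05 were found for 4 of the 14 and for 2563 of all 32039 probes. Cish had 3.11 and 3.14 with anti-IL-6R, against 2.86 and 2.79 with control antibody, a difference of 0.30 ± 0.07 (adjusted p = 0.45). Il2rb had 5.21 and 5.02, against 4.81 and 4.88, on its representing probe (0.27 ± 0.08, adjusted p = 0.55) and 4.07 and 3.97, against 3.76 and 3.82, on the other (0.23 ± 0.07, adjusted p = 0.54). Socs1 had 2.77 and 2.98, against 2.68 and 2.57 (0.25 ± 0.10, adjusted p = 0.61). These 4 probes had unadjusted p-values under 0.05, and for each the arrays given anti-IL-6R lay above those given control antibody. Of the 14 probes, 5 lay wholly above and 0 wholly below, against 23% and 16.9% of all probes. Il2ra, with 2.89 and 2.67 against 2.69 and 2.90, differed by -0.02 ± 0.10 (adjusted p = 0.97).

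Between the hosts under anti-IL-6R, 0 of the 14 probes passed, where 0.181% of all tested probes were higher and 0.0281% lower, 0.209% in either direction. An unadjusted p under 0.05 was found for 1 of the 14 and for 2381 of all 32039. That probe was the coding Socs2 probe, with -0.79 and -0.97 in tumour-bearing mice, against -1.33 and -1.10 in tumour-free mice, a difference of 0.34 ± 0.13 (adjusted p = 0.59). Cish differed by 0.14 ± 0.07 (adjusted p = 0.59, 95% interval -0.03 to 0.31) and Il2rb by -0.06 ± 0.08 (adjusted p = 0.79, 95% interval -0.25 to 0.13).

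Whether the antibody effect differed between hosts was tested with the interaction term, the effect in tumour-bearing minus that in tumour-free mice. It called 0 of the 14 probes, where 0.00624% of all tested probes had a positive term past the threshold and 0.0187% a negative one, 0.025% together. Unadjusted p-values under 0.05 were found for 7 of the 14, 6 below 0 and 1 above it, where 13.3% and 10.3% of all probes stood. Il2rb had -0.60 ± 0.10 (adjusted p = 0.081) on its second probe and -0.50 ± 0.12 (adjusted p = 0.098) on its representing one. Cish had -0.45 ± 0.10 (adjusted p = 0.096), Socs2 -0.53 ± 0.14 (adjusted p = 0.11) and Socs1 -0.43 ± 0.15 (adjusted p = 0.14). A difference between hosts in the effect of the antibody was thus not detectable for these genes with 2 arrays per group. The 4-group pattern behind these terms was that tumour-bearing mice with control antibody had the highest mean for 7 of the 9 representing probes, against 36.8% of all genes. The 2 exceptions were Stat5a and Stat5b, highest in tumour-free mice with anti-IL-6R, as were 26.6% of all genes. The other Stat5a probe was highest in tumour-bearing mice with control antibody.

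Outside Cish, Socs2 and Il2rb, whose orders are given above, neighbouring groups mostly overlapped. For Il2ra, tumour-bearing mice with control antibody stood alone at 3.18 ± 0.01 (SD, n = 2), above 2.92 ± 0.04 with anti-IL-6R. The tumour-free groups, at 2.78 ± 0.16 with anti-IL-6R and 2.79 ± 0.15 with control antibody, overlapped each other, and the second overlapped the tumour-bearing mice with anti-IL-6R. Il2rg averaged 6.09 ± 0.15 in tumour-bearing mice with anti-IL-6R, its lowest group, and 6.32 ± 0.06 in tumour-bearing mice with control antibody, its highest, and the 3 lower groups overlapped their neighbours. Pim1 was lowest in tumour-free mice with anti-IL-6R at 4.03 ± 0.19, and its 3 lower groups likewise overlapped. For Socs1 the 3 upper groups, at 2.85 ± 0.07 to 3.02 ± 0.15, overlapped their neighbours, and tumour-free mice with control antibody lay apart at 2.62 ± 0.08. For Stat5b all neighbours overlapped, with group means of 4.14 to 4.20.

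The probes of a gene did not always move together. Il2rb and Socs2 had 2 tested probes each whose changes had the same sign in every one of the 5 comparisons. For the other 3 genes with 2 tested probes the values differed in sign between the hosts under control antibody in Il2ra (0.39 and -0.44 for the clone probe) and Stat5a (-0.07 and 0.20), none of which passed. For Stat5b the clone probe fell while the representing one stood at 0.00 ± 0.08. The Il2ra clone probe stood at -0.84 and -0.58 in tumour-bearing mice with control antibody, against -0.29 and -0.25 in tumour-free mice with control antibody, a difference of -0.44 ± 0.17 (adjusted p = 0.17). With anti-IL-6R it had -0.60 and -0.08 in tumour-bearing and -0.28 and -0.42 in tumour-free mice. The Stat5b clone probe had -1.33 and -1.27 in tumour-bearing mice with anti-IL-6R, against -1.89 and -1.84 in tumour-bearing mice with control antibody, a difference of 0.56 ± 0.16 (adjusted p = 0.077). In Il2ra and Stat5b the clone probe was lowest in the tumour-bearing mice with control antibody. What transcript these 2 probes read was not tested.

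**Figure D3:**
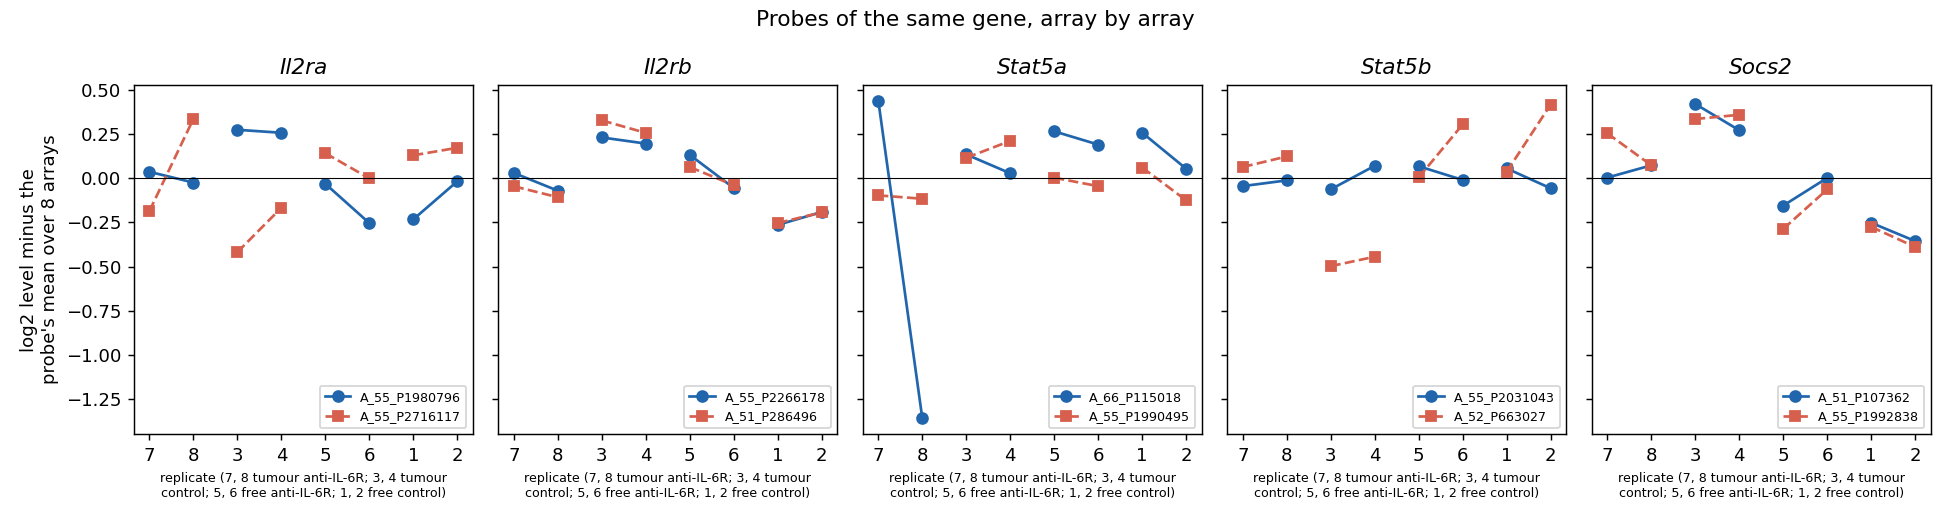
Level of each probe minus its own mean over the 8 arrays, for the 5 genes with 2 tested probes; the horizontal axis gives replicates, grouped as tumour-bearing with anti-IL-6R (7, 8), tumour-bearing with control antibody (3, 4), tumour-free with anti-IL-6R (5, 6) and tumour-free with control antibody (1, 2), and lines join the arrays of a group. The probes of Il2rb and Socs2 run together, those of Il2ra and Stat5b part in replicates 3 and 4, and the Stat5a probe A_66_P115018 is low on replicate 8.

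Among the ligands, Il4 and Il21 rose together with Cish, Socs2 and Il2rb. Of the 6 cytokines that use the common gamma chain, 4 were measured, and between the hosts under control antibody 2 of these rose, where 4.09% of all genes were higher and 1.91% lower. Il21, a cytokine of follicular helper cells, was higher by 3.18 ± 0.30 (adjusted p = 0.0018) and Il4, the Th2 cytokine, by 2.50 ± 0.17 (adjusted p = 0.00070). Both kept these calls under all 18 alternatives. Il2 itself was well above background on 5 of the 8 arrays, with both arrays of a group only in tumour-bearing mice with control antibody, and differed by 0.44 ± 0.37 (adjusted p = 0.53), a sign that turned without replicate 2. With anti-IL-6R in tumour-bearing mice Il4 fell by 1.61 (adjusted p = 0.020) and Il21 by 1.43 (adjusted p = 0.042), and Il15, which signals through Il2rb and Il2rg, was higher by 1.03 ± 0.17 (adjusted p = 0.029). In this comparison 1.77% of all genes were higher and 3.37% lower. Each of these 3 calls was lost without replicate 8, with no filter on dim probes and with no trend in the variance. That of Il21 was also lost without replicate 3, 4 or 7, and that of Il15 without replicate 4.

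Among 13 receptor chains of related cytokines, 4 rose and 0 fell between the hosts under control antibody, where 4.09% of all genes were higher and 1.91% lower. The list's median was 0.08, against 0.03 over all genes. They were Epor, the erythropoietin receptor (1.51 ± 0.31), Il9r (1.09 ± 0.25), Il3ra (0.47 ± 0.09) and Crlf2, a chain of the receptor for TSLP (0.35 ± 0.07), with adjusted p of 0.024 to 0.044. Each lost its call without several single arrays. Il15ra, which stands to IL-15 as Il2ra stands to IL-2, differed by 0.07 ± 0.09 (adjusted p = 0.70). Il7r, a receptor chain that IL-2 signalling is known to lower, differed by -0.33 ± 0.09 (adjusted p = 0.080) and passed under quantile normalization (-0.39, adjusted p = 0.021). With anti-IL-6R in tumour-bearing mice Il7r rose by 0.69 ± 0.09 (adjusted p = 0.027), a call lost without replicate 3 or 8. Il9r fell by 1.08 (adjusted p = 0.049), a call lost without replicate 1, 2, 3, 5, 6 or 8. Both calls were also lost with no filter on dim probes and with no trend in the variance.

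Of 18 kinases and adaptors downstream of the receptor, 0 passed in either comparison. In limma 7615 and 8651 of all 32039 tested probes had an unadjusted p under 0.05, and so had 4 and 7 of the 18. Among these was Jak3, the kinase bound to the gamma chain, which differed by 0.47 ± 0.15 between the hosts under control antibody (adjusted p = 0.11) and by -0.63 ± 0.15 with anti-IL-6R in tumour-bearing mice (adjusted p = 0.054). Both Jak3 values passed without replicate 5 or 6 and in fits of 2 groups (adjusted p = 0.016 to 0.034). Jak1 differed by -0.04 ± 0.09 and -0.05 ± 0.09. Of 15 other negative regulators, 1 rose and 0 fell between the hosts under control antibody, with a median of 0.04. Over all genes 4.09% were higher and 1.91% lower there, with a median of 0.03. The 1 was Ptpn11, the gene of the phosphatase SHP2, which rose by 0.63 ± 0.08 (adjusted p = 0.0067), in all 18 alternatives. With anti-IL-6R in tumour-bearing mice 0 of the 15 rose and 1 fell, where 1.77% of all genes were higher and 3.37% lower. This was again Ptpn11, which fell by 0.46 (adjusted p = 0.030), a call lost without replicate 3, 4 or 8. That call was also lost with no filter on dim probes, with no trend in the variance and in a fit of 2 groups. Socs3, the feedback inhibitor of IL-6 signalling, differed by 0.48 ± 0.23 (adjusted p = 0.25) and -0.87 ± 0.23 (adjusted p = 0.064), and the second passed without replicate 5 or 6 (adjusted p = 0.044 to 0.045).

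Of 25 other reported IL-2 or STAT5 targets, 24 were measured, and between the hosts under control antibody 8 rose and 1 fell, where 4.09% of all genes were higher and 1.91% lower. Their median was 0.26, against 0.03 over all genes. Tnfrsf4, the costimulatory receptor OX40, was higher by 1.19 ± 0.07 (adjusted p = 0.00035), Il1rl1, the IL-33 receptor, by 1.42 ± 0.13 (adjusted p = 0.0017), Tnfrsf18, the receptor GITR, by 0.63 ± 0.07 (adjusted p = 0.0041) and Gzmb, granzyme B, by 1.75 ± 0.23 (adjusted p = 0.0078). These 4 kept their calls under all 18 alternatives. Tfrc, the transferrin receptor, rose by 0.65 ± 0.11 and Xbp1, a secretory factor, by 0.51 ± 0.09, and both lost their calls without replicate 2 or 3. Rhob, a small GTPase gene, fell by 0.84 (adjusted p = 0.045), a call lost without replicate 1, 2, 3 or 4. The survival gene Bcl2 (-0.14 ± 0.12), the cell cycle gene Ccnd2 (0.23 ± 0.09) and the cytokine gene Osm (-0.07 ± 0.10) did not pass, though Ccnd2 did under quantile normalization (adjusted p = 0.047). Of Pim2, Pim3 and Socs3, kin of the feedback genes and of Pim1, 0 passed in either comparison, and Pim2 differed by -0.07 ± 0.18 and -0.11 ± 0.18.

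With anti-IL-6R in tumour-bearing mice, 4 of the same 24 targets fell and 1 rose, where 3.37% of all genes were lower and 1.77% higher. Their median of -0.09 was close to the -0.05 of all genes. Il1rl1 fell by 0.84, Tfrc by 0.57, Tnfrsf4 by 0.50 and Tnfrsf18 by 0.33, and Rhob rose by 1.06 ± 0.19 (adjusted p of 0.027 to 0.044). Each of these calls was lost without replicate 3 or 8, with no filter on dim probes and with no trend in the variance. That of Tnfrsf18 was lost without any 1 of the 8 arrays. Between the hosts under anti-IL-6R, Tnfrsf4 was the 1 target that passed, with 0.49 ± 0.07 (adjusted p = 0.0495), a call lost without any 1 of the 8 arrays. Over all genes 0.242% were higher and 0.0325% lower between these groups. Of 7 genes reported as lowered by IL-2 or STAT5, 1 rose and 0 fell between the hosts under control antibody, with a median of -0.16. In that comparison 4.09% of all genes were higher and 1.91% lower, with a median of 0.03. The 1 that rose was Bcl6, the follicular helper factor, at 0.54 ± 0.09 (adjusted p = 0.019), a call lost without replicate 2, 3 or 4. With the antibody in tumour-bearing mice, 1 of the 7 rose, Il7r as given above, with a median of 0.14.

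**Figure D4:**
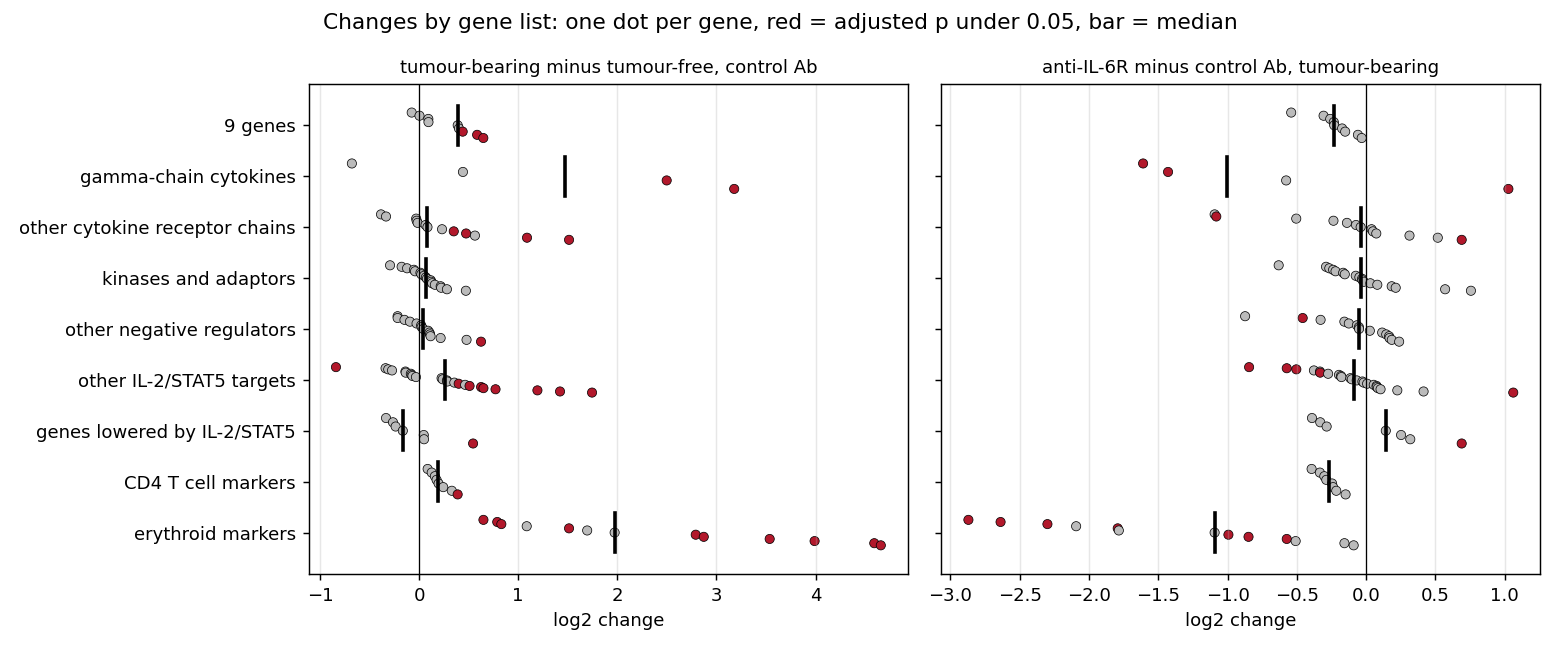
Log2 change of each measured gene by list, for tumour-bearing minus tumour-free mice under control antibody (left) and anti-IL-6R minus control antibody in tumour-bearing mice (right); 1 dot per gene, red dots passed an adjusted p of 0.05 and bars are medians. The 9 genes have medians of 0.39 and -0.23, the markers of CD4 T cells 0.19 and -0.27, and erythroid markers 1.97 and -1.09.

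Markers of cell types moved in the same comparisons, and their counts below stand against 4.09% of all genes higher and 1.91% lower between the hosts under control antibody. With anti-IL-6R in tumour-bearing mice the shares were 1.77% and 3.37%. The 8 measured CD4 T cell markers were all above 0 between the hosts under control antibody (median 0.19), and Cd5 passed (0.39 ± 0.08, adjusted p = 0.040). All 8 lay below 0 with anti-IL-6R in tumour-bearing mice, with a median of -0.27 and 0 past the threshold. Their summed signal, relative to the array's percentile, was 664 to 750 in tumour-bearing mice with anti-IL-6R, 845 to 862 in tumour-bearing mice with control antibody, 756 to 800 in tumour-free mice with anti-IL-6R and 699 to 784 in tumour-free mice with control antibody. Tumour-bearing mice with control antibody were the highest group for these markers too. Their part in the changes of the 9 genes was not tested.

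The 5 regulatory T cell markers, which include Il2ra, had a median of 0.40 between the hosts under control antibody, and 3 rose. Ctla4, an inhibitory receptor, was higher by 0.90 ± 0.17, Ikzf2, the factor Helios, by 0.59 ± 0.12 and Foxp3, the lineage factor, by 0.40 ± 0.08 (adjusted p of 0.026 to 0.038), and Ikzf4 by 0.36 ± 0.11 (adjusted p = 0.092), which did not pass. Each of the 3 was lost on leaving out any of at least 3 single arrays, and Foxp3 is also 1 of the 8 targets that rose. The summed signal of the 5 was 18.9 to 20.7 in tumour-bearing mice with anti-IL-6R, 22.3 to 23.6 in tumour-bearing mice with control antibody, 16.5 to 18.1 in tumour-free mice with anti-IL-6R and 16.2 to 17.1 in tumour-free mice with control antibody. With anti-IL-6R in tumour-bearing mice 0 of the 5 passed, with a median of -0.20.

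Natural killer cells, which carry much Il2rb, had markers that moved both ways. Of 7 markers, Gzma, Klra4 and Klra8 fell and Klrb1c rose between the hosts under control antibody (median -0.69). Gzma, Klra4 and Klra8 rose with anti-IL-6R in tumour-bearing mice (median 0.65). In these comparisons Klrb1c had values of 0.87 ± 0.18 (adjusted p = 0.035) and -0.60 ± 0.18 (adjusted p = 0.083). Eomes had 0.42 ± 0.12 (adjusted p = 0.086) and -0.31 ± 0.12 (adjusted p = 0.14). Both had signs like those of Il2rb, and the other markers had the opposite signs. Of the 7 markers, 2 lay above 0 in the first comparison and 5 in the second. Their summed signal was 11.4 to 12.6 in tumour-bearing mice with anti-IL-6R, 8.27 to 8.62 in tumour-bearing mice with control antibody, 14.1 to 14.5 in tumour-free mice with anti-IL-6R and 11.9 to 13.3 in tumour-free mice with control antibody. It was lowest in tumour-bearing mice with control antibody, and the part of these cells in the Il2rb values was not tested. The 6 plasma cell markers were all above 0 in the first comparison (median 1.41), where Derl3, Jchain and Mzb1 rose, and 5 lay below 0 in the second (median -0.56), where Derl3 fell. Their summed signal was 15.3 to 16.0 in tumour-bearing mice with anti-IL-6R, 22.2 to 24.4 in tumour-bearing mice with control antibody, 7.48 to 10.8 in tumour-free mice with anti-IL-6R and 8.68 to 9.57 in tumour-free mice with control antibody. Xbp1, given above among the targets, is also known for its role in plasma cells. B cell markers had medians of -0.93 and 0.75, with Bank1, Cd79a, Cr2, Ebf1 and Ms4a1 of the 8 lower in the first comparison and Cr2 higher in the second. The 13 measured erythroid markers had medians of 1.97 and -1.09, with 10 higher and 7 lower, and the 11 neutrophil markers 1.48 and -1.42. Of those 11, Camp, Ltf, Ly6g, Mpo and Ngp were higher in the first comparison and lower in the second. Ngp was well above background on 4 of the 8 arrays and on both arrays of tumour-bearing mice with control antibody alone, the group where it was highest, so it was tested only through that group. The same holds for the erythroid marker Epb42 and the plasma cell marker Sdc1, each above background on 3 arrays. Erythroid cells are a known site of STAT5 signalling through Epor, and Epor and Tfrc stand in this list too. The erythroid sum was 497 to 609 in tumour-bearing mice with anti-IL-6R, 501 to 765 in tumour-bearing mice with control antibody, 516 to 620 in tumour-free mice with anti-IL-6R and 196 to 379 in tumour-free mice with control antibody. Of the 13, 11 were well above background on all 8 arrays. The part of these cell types in the changes of Cish, Socs2 and Il2rb was not tested.

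The genes whose levels followed each member most closely over the 8 arrays were searched among 5628 genes with a span of at least 0.5. For Socs2 they were Lag3, an inhibitory receptor (r = 0.989), Vangl1 (r = 0.983) and C1qtnf12 (r = 0.977). For Cish they were Cst6 (r = 0.985), Angpt4 (r = 0.983) and Ang (r = 0.973), and for Il2ra Fbxo44 (r = 0.964), Pabpc1l (r = 0.962) and Cdk6, a cell cycle kinase (r = 0.955). Those for Socs1 were Dok7 (r = 0.967), Zbp1, an interferon-induced sensor of nucleic acids (r = 0.949), and Zfp982 (r = 0.923). Those for Stat5a, Cnih2, Cspg4 and Marchf9 (r = 0.947 to 0.973), rest on replicate 8. Il2rb, Il2rg, Pim1 and Stat5b spanned less than 0.5 on their representing probes and were left out. These values describe 8 arrays that share a slide and 4 groups.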

How the data were processed

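The deposited scanner files, 1 per array, hold spot intensity values from Agilent's extraction software, version 10.10.1.1 in the submitters' processing notes. According to their headers these were background-subtracted and detrended, with surrogates for dim spots. The deposited table holds log2 values, which equalled log2 of the processed signal minus a constant per array (r = 1). It served as an alternative.

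Control spots and 60 to 95 outlier spots per array were dropped. Levels are log2 signals minus the array's 75th percentile. The test covered the 32039 probes that the software called well above background on both arrays of any group. The lowest signal so called was 24.2 to 36.3. Probes were named through RefSeq by accession (32981), symbol (10224) or synonym (519), and 12863 kept the file's name. A gene's brightest tested probe represents it in lists.

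limma 3.58.1 in R 4.3.3 fitted 4 group means with a variance trend (4 residual and 4.29 prior degrees of freedom). Tests were two-sided, with Benjamini-Hochberg adjustment over the 32039 probes and a threshold of 0.05. The script was checked on simulated data. Arrays left out in turn leave a group with 1 array, assumed to vary like the others. Alternatives covered background correction, scaling, filter, variance model, probe choice, outlier spots and single arrays. Python 3.11.15, pandas 2.3.3 and matplotlib 3.10.9 did the rest.

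Members, lists and tests were chosen with earlier results of these data known. Of each list, up to 6 genes per comparison with the smallest p past the threshold may be named, with 10 fixed genes. Markers, and genes outside this rule that stand beside counts of 5 or fewer, were named after their values were seen. Probe positions are mm9, and the promoter table is GRCm38.p6.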

Additional observations from a re-analysis of the deposited data

How the results depend on the processing

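No paired analysis was possible because the replicate numbers run from 1 to 8 and no number occurs in more than 1 group. Of 1221 values of the 14 probes set against their main value, 1144 kept direction and side of the threshold, 32 lost a call, 3 gained one and 42 turned sign. None of the 42 was called in either setting. The fit with 1 probe per gene name held only the representing probes, so no other probe of the 14 could be called in it. Among those left out was the Il2rb probe called for the antibody in tumour-bearing mice. Over all tested probes, the comparison of hosts under control antibody called 674 with no filter on dim probes, 722 with no variance trend, 901 with array weights and 427 to 1787 with 1 array left out, against 1681. The antibody in tumour-bearing mice called 2072 with normexp, 15 with no filter, 56 with no trend, 908 with 2 groups fitted alone and 24 to 1766 with 1 array left out, against 1369. The antibody in tumour-free mice called 19 with normexp, 1 with the filter on all 8 arrays, 4 with array weights, 19 with 2 groups alone, 4 with 1 probe per gene name and 8 to 52 with 1 array left out, against 10. The hosts under anti-IL-6R gave 23 with no filter, 21 with no trend, 11 with 2 groups alone and 13 to 223 with 1 array left out, against 67. The interaction gave 5 under quantile normalization, 0 with no filter, 1 with the filter on all 8 arrays, 20 with no trend and 4 to 364 with 1 array left out, against 8. Of the 14 probes, the first comparison called 3 with no filter, 3 with 1 probe per gene name and 1 to 6 with 1 array left out, against 6. The second called 0 under quantile normalization, no filter, no trend, 2 groups alone and 1 probe per gene name, and 0 to 1 with 1 array left out, against 1. The last 3 called 0 to 0, 0 to 1 and 0 to 1 with 1 array left out.

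Under quantile normalization Stat5b (A_55_P2031043) gave -0.059, 0.075, -0.035, 0.051 and 0.11 in the 5 comparisons in the order above. Pim1 gave 0.054, Ccnd2 0.027, Jak1 0.069 and Osm 0.057 for the antibody in tumour-bearing mice, and Il15ra -0.0063 between hosts under control antibody. For the antibody in tumour-free mice Il2rg gave -0.041 and Stat5a (A_55_P1990495) -0.050, or -0.014 with normexp. Between hosts under anti-IL-6R, Il2ra (A_55_P2716117) gave -0.0048, Il2rb 0.021 (A_51_P286496) and 0.039 (A_55_P2266178), Socs1 0.066 and Stat5a (A_55_P1990495) 0.0011. The cause was not tested.

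With 1 array left out, values that turned sign between hosts under control antibody ranged from -0.024 to 0.21 for Il2rg, -0.0068 to 0.20 for Pim1, -0.18 to 0.028 for Stat5a (A_66_P115018), -0.062 to 0.071 for Stat5b (A_55_P2031043), -0.33 to 0.055 for Bcl2, -0.11 to 0.995 for Il2, -0.15 to 0.067 for Jak1 and -0.26 to 0.11 for Pim2. For Il15ra the values kept their sign, at 0.023 to 0.11. Values that turned sign for the antibody in tumour-bearing mice were -1.44 to 0.36 for Stat5a (A_66_P115018), -0.10 to 0.035 for Stat5b (A_55_P2031043) and -0.11 to 0.28 for Bcl2. In the same comparison they were -0.088 to 0.034 for Ccnd2, -0.056 to 0.15 for Il15ra, -0.081 to 0.045 for Osm and -0.29 to 0.067 for Pim2. For the antibody in tumour-free mice they were -0.13 to 0.093 for Il2ra (A_55_P1980796), -0.10 to 0.13 for Il2rg, -0.081 to 0.10 (A_55_P1990495) and -0.030 to 0.17 (A_66_P115018) for Stat5a, and -0.26 to 0.12 (A_52_P663027) and -0.026 to 0.086 (A_55_P2031043) for Stat5b. Between hosts under anti-IL-6R they were -0.26 to 0.26 for Il2ra (A_55_P2716117), -0.15 to 0.035 for Il2rb (A_55_P2266178), -0.13 to 0.077 for Socs1, -1.58 to 0.21 for Stat5a (A_66_P115018) and -0.21 to 0.089 for Stat5b (A_52_P663027). In the interaction they were -0.0054 to 0.27 for Pim1, -1.51 to 0.28 for Stat5a (A_66_P115018) and -0.13 to 0.0048 for Stat5b (A_55_P2031043). The number of arrays, 2 per group, limits the precision of every value.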

Other observations

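Stat3, the factor downstream of the IL-6 receptor, was read beside Stat5a and Stat5b. Between the hosts under control antibody it differed by 0.26 ± 0.08 (adjusted p = 0.089). With anti-IL-6R in tumour-bearing mice it fell by 0.34 (adjusted p = 0.049), a call lost without replicate 1, 2, 3, 4, 7 or 8. Stat3 also lost that call under quantile normalization, no filter, no trend, array weights and 2 groups alone. Its interaction term was -0.43 ± 0.11 (adjusted p = 0.10).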
